A study of Mus musculus with 6 samples.

Results

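Intermediate filament genes outside the keratin family were followed in YUMM3.3 tumors after treatment with rigosertib (RGS). The 10 genes, taken by symbol from a table of 40166 mouse genes, were the cytoplasmic filament genes *Vim*, *Des*, *Gfap*, *Nes*, *Nefl*, *Nefm* and *Synm* and the lamin genes *Lmna*, *Lmnb1* and *Lmnb2*. YUMM3.3 is a mouse melanoma cell line with mutant BRAF, and all 6 tumors grew from these cells under the skin of the lower back of C57BL/6 mice. The 3 RGS tumors came from mice given RGS, a small molecule RAS mimetic, at 300 mg/kg by mouth on 5 days a week, and the 3 vehicle tumors from mice given H2O as vehicle. All were collected at 17 days of treatment. The labels give neither age nor sex of the mice, and the study's methods describe young adult animals of either sex. The tumors carry the label numbers 7, 8 and 9 (vehicle) and 10, 11 and 12 (RGS). Nothing in the labels says that each tumor came from its own mouse, so p-values measure only the spread between these samples.

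Intermediate filaments are rope-like polymers of long coiled-coil proteins. Vimentin, desmin and glial fibrillary acidic protein (type III) can form filaments alone, and the neurofilament proteins, nestin and synemin (type IV) mostly join filaments made with other members. Which cytoplasmic member a cell makes is a classical sign of its lineage: vimentin in mesenchymal and melanoma cells, desmin in muscle and pericytes, neurofilaments in neurons, nestin in progenitors and neural crest derivatives. Lamins line the inner face of the nuclear envelope. *Lmna* encodes lamins A and C, which stiffen the nucleus, and *Lmnb1* and *Lmnb2* encode the B-type lamins, which stay attached to the membrane through a farnesyl group.

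The total counts assigned to genes were 22793087 to 32555494 per vehicle tumor and 13837932 to 21617368 per RGS tumor, so the ranges of depth did not overlap, and depth and treatment cannot be told apart. Levels are given in CPM, counts scaled to library size with edgeR's TMM factors. The floor, set at 3 counts in a library, was 0.0856 to 0.226 CPM and covers counting error only. Of 8 melanocyte genes, which define the lineage of the labelled tumor, *Dct*, *Tyr*, *Mlana* and *Slc45a2* were listed at 0 in every tumor, and *Mitf* had 74 to 261 counts. Of 8 leukocyte genes, *Ptprc*, *Adgre1*, *Cd3e* and *Ms4a1* were listed at 0 as well, whereas *Laptm5* had 3549 to 19348 counts. A count of 0 need not mean an absent transcript in this table, since *Kif11*, a motor that dividing cells need, was also at 0 in all 6 tumors beside 499 to 5754 counts of *Mki67*. In bulk tumor RNA, fewer cells of a type and less RNA per cell cannot be told apart.

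After RGS treatment the tumors had more *Nefl*, *Nefm* and *Nes*, less *Vim* and *Lmnb1*, and no change past the threshold in *Lmna*, *Lmnb2* or *Synm*. *Des* had counts only in the RGS tumors, at 5 to 24 per tumor. Of the 10 genes, 9 passed the filter on low counts (a median of at least 5 counts in at least 1 group). At an adjusted p under 0.05 from edgeR's quasi-likelihood test, 4 of these 9 were higher (44.4%, against 16.3% of all 15355 tested genes) and 2 were lower (22.2%, against 16.5%). Together 6 of 9 passed (66.7%, against 32.8% of all tested genes). The same 32.8% is the share to set beside the counts of every other gene list below. The values of the 3 RGS and the 3 vehicle tumors did not overlap for the same 6 genes, which was the case for 45.8% of all tested genes. *Gfap* was not tested. *Des* passed the filter only through the RGS group, so it had to differ, and these counts do not speak for it. Without *Des*, a count added after the values were seen, 3 of 8 genes were higher (37.5%) and 2 were lower, 5 of 8 passed (62.5%), and the groups did not overlap for 5. The median log2 fold change was -0.10 over the 9 genes and -0.15 without *Des*, beside -0.05 over all tested genes.

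**Figure D1:**
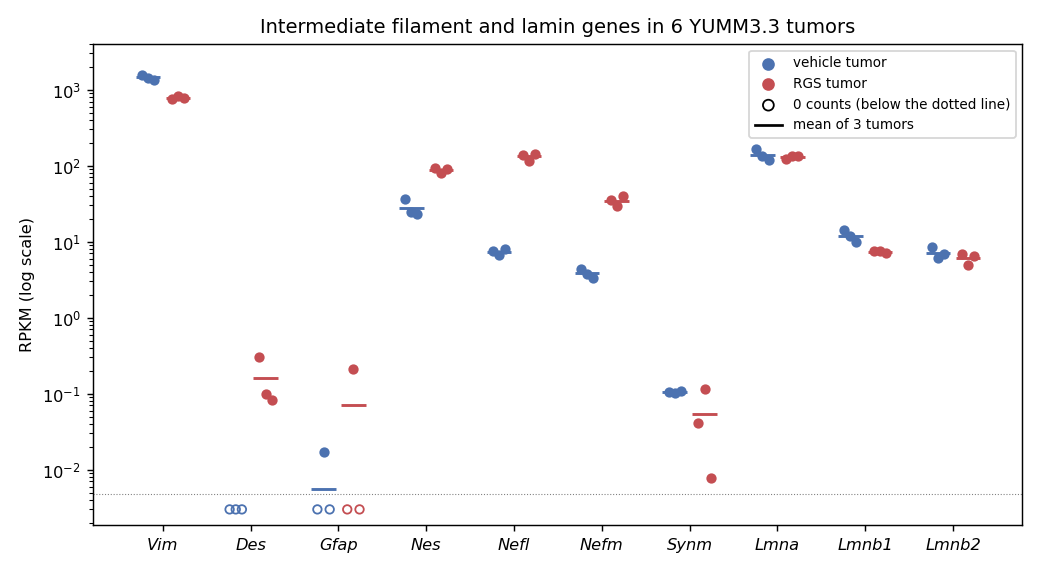
Level of the 10 genes in each tumor, as RPKM (CPM divided by gene length in kilobases) on a log axis. Points are tumors, lines are means of 3, and open circles under the dotted line are tumors with 0 counts. *Vim* stands highest in every tumor, and *Nefl*, *Nefm* and *Nes* have all RGS points above all vehicle points.

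*Vim* encodes vimentin, the main cytoplasmic filament of mesenchymal cells. The gene (ENSMUSG00000026728.9) lies on the plus strand of chromosome 2 of GRCm38 from 13573927 to 13582826. By mean CPM it ranked 3 among all genes of the table in vehicle tumors and 17 in RGS tumors. Its level was 7434, 6844 and 6417 CPM in vehicle tumors 7, 8 and 9 and 3570, 3903 and 3728 CPM in RGS tumors 10, 11 and 12. All RGS tumors were below all vehicle tumors, with a wide gap between the groups. The mean fell from 6898 ± 511 to 3733 ± 167 CPM (SD, n = 3 each), which is 1.85-fold lower (log2 fold change -0.89, standard error 0.14, adjusted p = 1.01e-04). Vimentin transcripts took 0.725 ± 0.0728% of all counts with vehicle and 0.356 ± 0.0167% with RGS (SD, n = 3 each).

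*Des* encodes desmin, the filament of muscle cells and pericytes, and *Gfap* the filament of astrocytes and some Schwann cells. *Des* (ENSMUSG00000026208.9, chromosome 1, 75360329 to 75368579) had 0 counts in each vehicle tumor and 24, 5 and 5 counts in RGS tumors 10, 11 and 12. These are a trace beside *Vim*, and most of them came from tumor 10. Against the floor of 3 counts per library, taken in the vehicle library where it was highest, the RGS mean of 0.606 ± 0.460 CPM (SD, n = 3) was at least 4.70-fold higher (edgeR adjusted p = 0.0166). Because *Des* entered the test only through its RGS counts, neither the bound nor this p-value is evidence of a difference. Without RGS tumor 10 the mean was 0.341 CPM and the bound 2.65-fold. The call was lost whichever tumor was left out, with adjusted p up to 0.122. *Gfap* (ENSMUSG00000020932.14, chromosome 11, 102887336 to 102900912) had 0, 2 and 0 counts with vehicle and 0, 12 and 0 with RGS, so its only value over the floor was in RGS tumor 11. Of 14 skeletal muscle genes, 7 were listed at 0 in all tumors, among them *Ckm* and *Myog*. Their summed level was 9.84 to 14.7 CPM with vehicle and 7.15 to 10.9 CPM with RGS, and none of the 4 tested passed edgeR's test, DESeq2 or voom, nor an unadjusted p under 0.05. The median log2 fold change of these 4 was -0.58, and the RGS values in CPM of *Ttn* (-0.70) and *Tnnt3* (-0.80) all lay below the vehicle values. Of 12 smooth muscle and pericyte genes, 8 were tested, 2 were higher and 5 were lower. *Rgs5*, a pericyte marker, had 48, 40 and 26 counts with vehicle and 8728, 4882 and 6916 with RGS, and in RGS tumors it took up most of the list's summed level (206 to 287 CPM with vehicle and 478 to 545 CPM with RGS). *Acta2*, the smooth muscle actin, fell (log2 fold change -2.28, adjusted p = 6.63e-08). Other pericyte markers of the list went the other way from *Rgs5*: *Pdgfrb*, *Cspg4* and *Notch3* were lower (log2 fold changes -2.20, -0.87 and -1.27). *Cnn1* was also lower (-2.30), and *Synpo2* was the other higher gene (1.79). *Kcnj8* and *Abcc9* were listed at 0 in all tumors. The part of such cells in the counts of *Des* was not tested.

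*Nes* encodes nestin, a large filament protein of neural progenitors that needs a partner such as vimentin to polymerize. The gene (ENSMUSG00000004891.16) lies on the plus strand of chromosome 3 from 87971078 to 87980451. It stood at 232, 156 and 147 CPM in vehicle tumors 7, 8 and 9 and at 607, 511 and 576 CPM in RGS tumors 10, 11 and 12. The lowest RGS tumor was above the highest vehicle tumor. The mean rose from 178 ± 46.6 to 565 ± 48.6 CPM (SD, n = 3 each), 3.17-fold (log2 fold change 1.66, standard error 0.18, adjusted p = 1.26e-06).

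The promoters of *Vim* and *Nes*, the abundant cytoplasmic members that moved in opposite directions, are shown with that of *Lmna*, an abundant member that did not pass the threshold. RefSeq windows of 300 bases (250 before and 50 after the start site, build GRCm38.p6) were found for 7 of the 10 genes. They lie at chr2:13574061-13574360 on the plus strand (*Vim*), chr3:87970843-87971142 on the plus strand (*Nes*) and chr3:88503303-88503602 on the minus strand (the first of 2 *Lmna* windows). Capitals mark matches, on either strand, to any of 7 motifs. The TATA box was searched as TATAAA and the CCAAT box as its own letters. The GC box was searched as GGGCGG, and the AP-1 motif as TGACTCA. The cyclic AMP response element was searched as TGACGTCA, and the E-box as CACGTG. The CArG box was searched by its usual consensus.
Vim: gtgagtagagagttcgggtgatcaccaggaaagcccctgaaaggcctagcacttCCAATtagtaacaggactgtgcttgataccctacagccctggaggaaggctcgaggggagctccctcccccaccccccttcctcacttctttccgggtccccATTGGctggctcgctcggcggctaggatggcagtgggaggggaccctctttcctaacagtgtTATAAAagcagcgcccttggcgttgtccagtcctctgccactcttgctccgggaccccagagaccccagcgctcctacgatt
Nes: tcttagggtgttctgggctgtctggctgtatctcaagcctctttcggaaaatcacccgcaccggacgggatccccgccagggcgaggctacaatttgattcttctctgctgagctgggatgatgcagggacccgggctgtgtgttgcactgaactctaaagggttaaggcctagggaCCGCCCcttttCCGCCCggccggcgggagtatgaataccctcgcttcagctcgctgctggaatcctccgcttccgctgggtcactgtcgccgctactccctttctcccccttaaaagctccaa
Lmna: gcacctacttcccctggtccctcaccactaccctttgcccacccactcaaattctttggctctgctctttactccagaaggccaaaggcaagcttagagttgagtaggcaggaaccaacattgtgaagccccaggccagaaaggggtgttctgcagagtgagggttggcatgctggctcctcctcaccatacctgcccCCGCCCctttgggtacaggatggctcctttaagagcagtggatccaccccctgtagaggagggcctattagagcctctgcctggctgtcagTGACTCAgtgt

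The *Vim* window held a TATA box at position -32 from the start site and CCAAT boxes at -196 and -94. The *Nes* window had neither, and held GC boxes at -73 and -62. The *Lmna* window shown held a GC box at -52 and an AP-1 match at position 39. The second *Lmna* window, from 88493263, held a CCAAT box at -131 and neither of these. Both *Lmna* windows lie inside the span of the gene, away from its start on the minus strand at 88509956. The *Vim* window also lies inside the span of its gene, which starts on the plus strand at 13573927. Of all 32851 promoter windows in the table, 13.6% held a TATA box, 37.4% a CCAAT box, 35.7% a GC box and 5.20% an AP-1 match, 1.79% a cyclic AMP response element, 7.15% an E-box and 1.63% a CArG box. A match describes the letters of the window, not binding.

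*Nefl* and *Nefm* encode the light and the medium neurofilament protein, which build the axonal cytoskeleton of neurons, the light chain being the one that starts the filament. *Nefl* (ENSMUSG00000022055.7, chromosome 14, plus strand, 68083863 to 68089095) had the largest change of the members with a mean of at least 1 CPM. It stood at 25.3, 22.6 and 27.0 CPM in vehicle tumors 7, 8 and 9 and at 470, 389 and 489 CPM in RGS tumors 10, 11 and 12. Every RGS tumor was more than 10 times any vehicle tumor. The mean rose from 25.0 ± 2.20 to 449 ± 53.3 CPM (SD, n = 3 each), 18.0-fold (log2 fold change 4.17, standard error 0.18, adjusted p = 4.50e-12). Its rank by mean CPM moved from 6579 to 331.

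*Nefm* (ENSMUSG00000022054.11, minus strand, 68082590 to 68124846) stood at 25.6, 21.7 and 19.3 CPM in the vehicle tumors and at 205, 168 and 229 CPM in the RGS tumors, in the same order of labels. The groups again stood far apart. The mean rose from 22.2 ± 3.23 to 201 ± 30.3 CPM (SD, n = 3 each), 9.02-fold (log2 fold change 3.17, standard error 0.18, adjusted p = 4.52e-10). For *Nefl*, *Nefm*, *Nes* and *Vim* the calls held with each tumor left out, where log2 fold changes were 4.08 to 4.25, 3.05 to 3.29, 1.55 to 1.90 and -0.93 to -0.83.

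The neurofilament genes are neighbours on opposite strands. In GENCODE M21 the last exon of the long transcript Nefm-202 (68082590 to 68084970) covers 1108 bases of the first exon of *Nefl* (68083863 to 68084970). Whether the counting used strand is not given in the sources used here, so reads from that stretch could have been lost or given to the other gene. The ratio of *Nefl* to *Nefm* counts was 0.986, 1.04 and 1.40 in vehicle tumors 7, 8 and 9 and 2.29, 2.31 and 2.14 in RGS tumors 10, 11 and 12. Both genes rose and *Nefl* rose more, and the ratios of the groups did not overlap. This ratio was chosen after the values had been seen, and the effect of the shared stretch on it was not tested.

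*Synm* encodes synemin, a large linker that ties desmin and vimentin filaments to the membrane. Its level was low, with 29, 23 and 20 counts with vehicle and 7, 12 and 1 with RGS. In CPM the highest RGS tumor (0.904) was above the highest vehicle tumor (0.859), so the groups overlapped. Its log2 fold change was -0.96 with a 95% confidence interval from -3.64 to 1.72 (adjusted p = 0.608), which allows a large change in either direction. The value was -2.05 without RGS tumor 11 and -0.48 without RGS tumor 12. The span of *Synm* overlaps that of *Ttc23*, which had 251 to 717 counts.

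**Figure D2:**
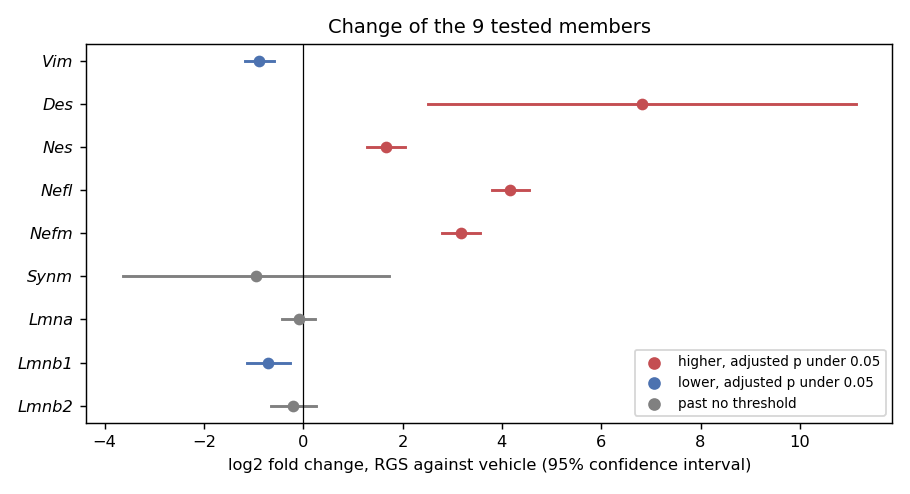
Log2 fold change of the 9 tested genes, RGS against vehicle, as points with 95% confidence intervals. *Nefl*, *Nefm* and *Nes* have narrow intervals above 0, *Des* a wide one, and those of *Synm*, *Lmna* and *Lmnb2* include 0.

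The make-up of the cytoplasmic filament transcripts shifted. Per gene length (RPKM), *Vim* made up 97.0%, 97.6% and 97.5% of the summed level of the 7 cytoplasmic genes in vehicle tumors 7, 8 and 9, and 73.7%, 78.6% and 74.1% in RGS tumors 10, 11 and 12. *Nefl* and *Nefm* together went from 0.753% (0.707% to 0.816%) to 16.1% (13.8% to 17.4%) of that sum, and *Nes* from 1.85 ± 0.340% to 8.44 ± 0.820% (SD, n = 3 each). In RPKM, *Nefl* alone (133 ± 15.8, SD, n = 3) reached the level of *Lmna* (130.2 ± 7.62) in RGS tumors, whereas in vehicle tumors it was at 7.38 ± 0.652 against 139 ± 23.6. *Vim* remained the most abundant of the 10 genes in all 6 tumors, with 1454 ± 108 RPKM in vehicle and 787 ± 35.1 RPKM in RGS tumors. The summed RPKM of the 7 genes was 1493 ± 115 with vehicle and 1043 ± 19.4 with RGS. The gain in neurofilaments and nestin (from 39.0 ± 7.84 to 256 ± 27.6 RPKM) was smaller than the loss of *Vim*. These shares are descriptions and were not tested.

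**Figure D3:**
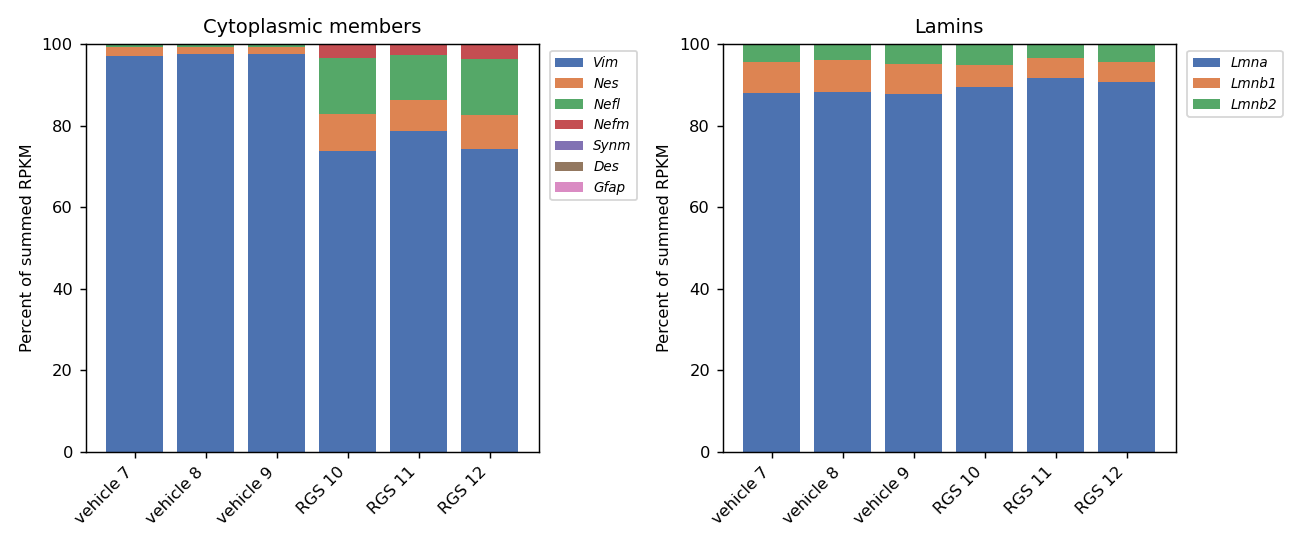
Share of each gene in the summed RPKM of the 7 cytoplasmic genes (left) and the 3 lamin genes (right), 1 bar per tumor. The *Vim* share is 97.0% to 97.6% in vehicle tumors and 73.7% to 78.6% in RGS tumors, and *Lmna* makes up most of the lamin bars in all 6.

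Order among the other levels differed between the groups. By mean RPKM, vehicle tumors had *Vim*, *Lmna*, *Nes*, *Lmnb1*, *Nefl*, *Lmnb2* and *Nefm* in falling order. The ranges of *Nefl* (6.69 to 7.98) and *Lmnb2* (6.02 to 8.40) overlapped, and those of the other neighbours did not. RGS tumors had *Vim*, *Nefl*, *Lmna*, *Nes*, *Nefm*, *Lmnb1* and *Lmnb2*. There the range of *Nefl* (115 to 145) overlapped that of *Lmna* (121 to 136), and the other neighbours were apart. *Synm*, *Des* and *Gfap* reached at most 0.114, 0.303 and 0.214 RPKM in any tumor.

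Among the lamins, the level of *Lmnb1* fell and that of *Lmna* did not move past the threshold. *Lmna* (ENSMUSG00000028063.15, chromosome 3, minus strand, 88480147 to 88509956) stood at 965, 775 and 697 CPM in vehicle tumors 7, 8 and 9 and at 709, 792 and 778 CPM in RGS tumors 10, 11 and 12. All RGS values lay within the vehicle range. Its log2 fold change was -0.10 (95% confidence interval -0.42 to 0.23, adjusted p = 0.678), and 0.04 without vehicle tumor 7, the highest.

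*Lmnb1* (ENSMUSG00000024590.8, chromosome 18, 56707813 to 56753424) stood at 42.1, 35.2 and 29.4 CPM in the vehicle tumors and at 22.1, 22.3 and 21.0 CPM in the RGS tumors. The RGS tumors were close together and all below the vehicle tumors. The mean went from 35.6 ± 6.32 to 21.8 ± 0.685 CPM (SD, n = 3 each), 1.63-fold lower (log2 fold change -0.71, standard error 0.21, adjusted p = 0.0138). Without vehicle tumor 7 or 8 the call was lost (log2 fold change -0.57 and -0.69, adjusted p = 0.0533 and adjusted p = 0.0605). *Lmnb2* (ENSMUSG00000062075.13, chromosome 10, 80901203 to 80918245) stood at 36.0, 25.8 and 29.4 CPM with vehicle and 29.9, 21.3 and 27.8 CPM with RGS, and the groups overlapped. Its log2 fold change was -0.20 with an interval from -0.66 to 0.25 (adjusted p = 0.507). Per length, *Lmna* made up 88.0%, 88.1% and 87.7% of the lamin level in vehicle tumors 7, 8 and 9 and 89.4%, 91.6% and 90.7% in RGS tumors 10, 11 and 12. The *Lmnb1* share went from 7.58 ± 0.295% to 5.14 ± 0.337% (SD, n = 3 each).

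Genes of cell division fell beside *Lmnb1*. Of 12 listed genes, 11 were tested, 10 were lower and none higher, with a median log2 fold change of -1.22. *Bub1*, a spindle checkpoint kinase, had the smallest adjusted p (log2 fold change -2.81, adjusted p = 1.82e-08), and *Mki67*, the Ki67 proliferation antigen, fell from 133 ± 28.1 to 48.5 ± 9.45 CPM (SD, n = 3 each). The summed level of the list was 951 to 1000.4 CPM with vehicle and 433 to 519 CPM with RGS. Its part in the decrease of *Lmnb1* was not tested.

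Lamins work with proteins of the inner nuclear membrane and with the LINC complex, which joins the nucleus to the cytoskeleton. Of 17 such partners, all tested, 4 were lower, 1 was higher and 12 did not pass (median log2 fold change -0.15). Over all tested genes 32.8% passed, so the list stood near the general share. *Lbr*, the lamin B receptor, had the largest decrease, with 3667, 3326 and 3042 counts with vehicle and 652, 340 and 323 with RGS. Its mean went from 118 ± 13.1 to 25.4 ± 5.55 CPM (n = 3 each, SD), a log2 fold change of -2.21 (standard error 0.19, adjusted p = 8.73e-08). *Tmpo*, which encodes the lamina-associated LAP2 proteins, fell from 200.3 ± 7.62 to 67.7 ± 6.66 CPM (n = 3 each, SD), a log2 fold change of -1.56 (adjusted p = 4.61e-07). *Sun1*, a LINC component, and *Emd*, which encodes emerin, were lower too (log2 fold changes -0.49 and -0.70), and *Tor1aip1*, which encodes LAP1, was higher (log2 fold change 0.74, adjusted p = 0.0125). *Sun2* and *Syne2* had log2 fold changes of -0.26 and -0.17 and did not pass. The number of calls fell from 5 to 3 without vehicle tumor 8, RGS tumor 11 or RGS tumor 12, and in each of these fits the higher call, *Tor1aip1*, was among those lost.

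The enzymes that farnesylate and trim lamins were split, with 2 of 5 past the threshold against 32.8% of all tested genes. Of 5 tested, *Icmt*, which methylates the farnesylated end, rose from 66.0 ± 13.6 to 147 ± 16.0 CPM, and *Fnta*, a farnesyltransferase subunit, fell from 91.6 ± 18.3 to 47.6 ± 4.89 CPM (SD, n = 3 each). Their log2 fold changes were 1.16 (adjusted p = 5.36e-05) and -0.94 (adjusted p = 5.86e-04). *Zmpste24*, the protease that matures lamin A, had a log2 fold change of 0.36 and did not pass (adjusted p = 0.183).

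**Figure D4:**
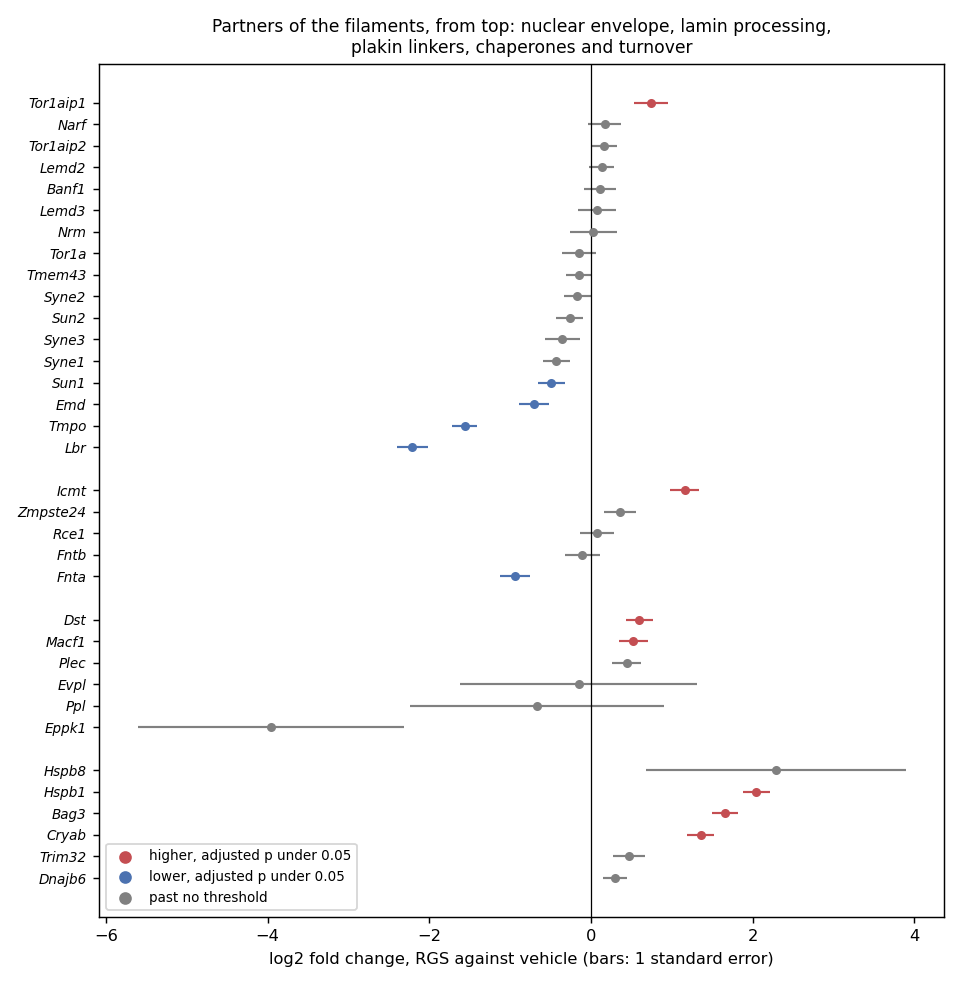
Log2 fold change, RGS against vehicle, of tested partner genes in 4 groups (1 turnover gene is not drawn), with bars of 1 standard error. *Lbr* and *Tmpo* lie lowest among the nuclear envelope genes past the threshold, and *Cryab*, *Hspb1* and *Bag3* are higher among the chaperones.

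On the cytoplasmic side, transcripts of 2 small heat shock proteins and of a co-chaperone rose. Small heat shock proteins are known to guard desmin and vimentin filaments. Of 7 genes for chaperones and turnover, all tested, 3 were higher and none lower. *Hspb1* had 936, 694 and 602 counts with vehicle and 2140, 1411 and 1819 with RGS, and its mean rose from 25.8 ± 0.997 to 106 ± 4.99 CPM (n = 3 each, SD), a log2 fold change of 2.04 (adjusted p = 3.88e-08). *Bag3*, which encodes the co-chaperone, rose from 108 ± 17.4 to 342 ± 11.9 CPM (n = 3 each, SD), a log2 fold change of 1.66 (adjusted p = 3.21e-07). *Cryab*, which encodes alpha-B crystallin, was the third, with a log2 fold change of 1.36. *Hspb8*, another small heat shock gene, had 0 to 10 counts per tumor and did not pass (log2 fold change 2.29, adjusted p = 0.296).

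Of 7 plakins, the giant proteins that cross-link filaments to other structures, 6 were tested and *Dst* and *Macf1* were higher (log2 fold changes 0.60 and 0.52, adjusted p = 0.0106 and adjusted p = 0.0278). These calls were lost, to 0 of 6, without vehicle tumor 8 or RGS tumor 11 and with library size alone as the scale, and only 1 was made without vehicle tumor 9 or RGS tumor 10. *Plec*, which encodes plectin, did not pass (log2 fold change 0.44, adjusted p = 0.0688). The other tested plakins, *Eppk1*, *Evpl* and *Ppl*, had negative log2 fold changes (-3.96, -0.15 and -0.67) and did not pass either. *Eppk1* had 43, 6 and 18 counts with vehicle and 0, 1 and 1 with RGS (adjusted p = 0.0731). It entered the test only through its vehicle counts. The plakin calls stood at about the share over all tested genes, 32.8%. Among 10 other genes of intermediate filament proteins outside the keratins, *Ina*, *Nefh*, *Bfsp2* and *Lmntd1* were listed at 0 in all tumors, and none of the 6 tested passed the threshold in edgeR's test, with 0 also at an unadjusted p under 0.05 and with DESeq2, and 2 higher with voom. *Bfsp1*, a lens filament gene with 4 to 28 counts, had a log2 fold change of 2.03 with all RGS tumors above all vehicle tumors in CPM, and did not pass (adjusted p = 0.218). *Nefh*, the heavy neurofilament chain, was thus at 0 beside 628 to 9926 counts of *Nefl*, and *Prph*, the peripheral neuron filament, had 11 to 75 counts.

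Neuronal genes moved unevenly beside the neurofilaments. Of 7 listed, 6 were tested, 2 were higher and none lower, beside 32.8% of all tested genes called in either direction. *Tubb3*, neuronal beta-tubulin, rose from 29.8 ± 2.17 to 96.4 ± 19.6 CPM (n = 3 each, SD), a log2 fold change of 1.69 (adjusted p = 1.62e-06), and *Uchl1*, a neuronal ubiquitin hydrolase, rose by 1.02 on the log2 scale. *Rbfox3*, *Syp* and *Elavl4* were at 0 to 4, 0 to 22 and 1 to 41 counts, each highest in vehicle tumor 7. *Map2* had 0 to 31 counts. *Stmn2* had 72 to 128 counts, with all RGS tumors above all vehicle tumors in CPM, and did not pass (log2 fold change 0.42, adjusted p = 0.491). The summed level of the list was 79.0 to 97.5 CPM with vehicle and 179 to 239 CPM with RGS. Of 7 Schwann cell genes in the table, 4 were tested. *Ngfr*, the neural crest receptor for nerve growth factor, was higher (log2 fold change 1.53), and *Prx* was lower (log2 fold change -1.37). *Mbp*, also lower, had 30, 24 and 29 counts with vehicle and 0 in each RGS tumor. Because *Mbp* entered the test only through its vehicle counts, this call is not evidence of a difference. The list's summed level was 16.6 to 19.2 CPM with vehicle and 21.2 to 27.8 CPM with RGS, and *Pmp2* was at 0. The part of such cells in the rise of *Nefl*, *Nefm* and *Nes* was not tested.

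Fibroblast genes moved in part with *Vim*. Of 8, 6 were tested, *Pdgfra*, *Col1a2* and *Col3a1* were lower and *Dcn* was higher. *Pdgfra* went from 179 ± 30.0 to 110.4 ± 12.6 CPM (n = 3 each, SD), a log2 fold change of -0.70 (adjusted p = 0.00312). The summed level was 397 to 583 CPM with vehicle and 290.3 to 320 CPM with RGS, with *Lum* at 0 in all tumors. Endothelial genes summed to 2.84 to 4.35 CPM with vehicle and 8.36 to 15.2 CPM with RGS, with *Emcn* at 0 and 1 of 5 tested genes higher (*Cdh5*, log2 fold change 3.47). Keratinocyte genes stayed at or under 2.56 CPM in sum, with *Krt1* and *Trp63* at 0 and the 1 tested not passing by edgeR, DESeq2 or voom or at an unadjusted p under 0.05. The 8 melanocyte genes summed to 4.94 to 7.67 CPM with vehicle and 4.53 to 10.5 CPM with RGS, and neither of the 2 tested passed, by edgeR, DESeq2 or voom or at an unadjusted p under 0.05. The part of these cells in the decrease of *Vim* was not tested.

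The genes most like *Nefl* across the 6 tumors, by Pearson's r of log2 CPM among genes with a mean of at least 10 CPM, were *Peg13*, a noncoding RNA, *Aldh1a3*, a retinaldehyde dehydrogenase, and *Tcp11l2*, each at r = 0.999. *Peg13* went from 32.4 to 304 CPM and *Aldh1a3* from 5.65 to 51.5 CPM. Those most like *Vim* were *Hjurp*, a centromere histone chaperone (r = 0.999), *Kitl*, the ligand of KIT (r = 0.998), and *Cdsn*, corneodesmosin (r = 0.998), with log2 fold changes of -1.22, -0.84 and -4.35. All points share the treatment difference: 110 genes had r over 0.99 with *Nefl* and 31 with *Vim*, so the values describe these 6 libraries only.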

How the data were processed

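RNA from 6 YUMM3.3 tumors, kept in RNAlater, was sequenced as paired-end reads of 150 bases. The authors deposited raw counts per gene, 1 column per tumor. The submitters' processing notes name cutadapt 1.18, FastQC 0.11.7, STAR 2.7.1a, featureCounts 1.6.4 and mm10. Strand setting and annotation release are not given in the sources used here. Gene positions in the table matched those of GENCODE M21 for all 10 members. Columns were matched to samples by title.

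From the deposited counts, genes with a median of at least 5 in at least 1 group were kept (15355 of 40166). The study's methods use this filter with DESeq2. Here the main test was edgeR 4.0.16 (R 4.3.3): TMM factors, quasi-likelihood F test, Benjamini-Hochberg adjustment over all tested genes, threshold 0.05. Standard errors were obtained from the fold change and the F statistic. RPKM used the table's gene length. The procedure was tested on simulated data. Between libraries of one group, chi-square over its degrees of freedom was 19.7 or more, so none was a repeat deposit. Alternatives were DESeq2 1.42.0, limma 3.58.1 (voom), other factors, filters and thresholds, thinning, mitochondrial genes left out and each tumor left out.

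The members and lists were chosen with earlier results of these data known. The text names all 10 members, up to 2 genes higher and 2 lower per list by smallest adjusted p, and the 3 genes most like the member of largest change and that of highest RPKM (pseudocount 0.5 CPM). Further list genes were picked with their values in view. *Egr2*, on the Schwann cell list, was not analysed here. A gene of the chaperone and turnover list is not reported here by itself.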

Additional observations from a re-analysis of the deposited data

Results flagged for a closer look

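*Gfap* did not enter the comparison, because its median count was under 5 in both groups. It had 12 counts in RGS tumor 11, above the floor of 3 counts and above the vehicle maximum of 2, and 0 counts in RGS tumors 10 and 12. With no filter on low counts its log2 fold change was 3.34 (edgeR, adjusted p = 0.404). The span of *Gfap* overlaps that of *Gm26668*, a noncoding RNA with 17 to 36 counts per tumor. The effect of this overlap on the *Gfap* counts was not tested.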

How the results depend on the processing

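Of 159 values of single members under the alternatives other than a minimum fold change, 148 kept direction and side of the threshold, 10 lost the call (7 of *Des*, 3 of *Lmnb1*) and 1 changed sign. *Lmna* had log2 fold changes from -0.192 to 0.0441 with 1 tumor left out. The positive value, 0.0441, came without vehicle tumor 7. *Des* and *Lmnb1* also lost the call at an adjusted p under 0.01, and *Des* was not tested under edgeR's own filter or a filter of 1 CPM in 3 tumors. *Vim* and *Lmnb1* were not called where a change of 1 or more on the log2 scale was asked for, which left 4 higher, *Des* among them, and 0 lower. The members called numbered 4 to 6. Of all genes, 5036 were called, against 3169 at an adjusted p under 0.01, 2618 where a change of 1 or more on the log2 scale was also asked for, and 3493 to 5249 with 1 tumor left out. With library size alone as the scale, 1870 genes were higher and 3152 lower, against 2503 and 2533 with TMM factors, and the median of all tested genes moved from -0.05 to -0.19. The gain in the *Lmna* share of lamin transcripts was 2.64 percentage points per length and 1.53 without division by length. The cause of these changes was not tested. No paired analysis was possible because the vehicle and RGS tumors share no replicate number. With 3 tumors against 3, an exact permutation test cannot go below 0.1.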

Other observations

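Kinases that phosphorylate intermediate filaments, often when they disassemble in mitosis, were split. Of 9 tested, *Aurkb* and *Cdk1* were lower in RGS tumors and *Pak1* was higher, about the share over all tested genes (32.8%). *Aurkb*, the kinase of the chromosomal passenger complex, fell from 32.7 ± 4.22 to 9.79 ± 1.77 CPM (n = 3 each, SD), a edgeR log2 fold change of -1.74 (adjusted p = 1.88e-05). *Cdk1*, the mitotic kinase that phosphorylates lamins and vimentin, fell from 95.5 ± 15.9 to 51.8 ± 11.6 CPM (n = 3 each, SD), a log2 fold change of -0.88 (adjusted p = 0.00154). *Pak1*, a kinase of vimentin and desmin, rose from 62.4 ± 21.0 to 120 ± 13.8 CPM (n = 3 each, SD), a log2 fold change of 0.94 (adjusted p = 0.00152). *Plk1* had 493 to 833 counts with vehicle and 220 to 308 with RGS, in libraries of unlike depth. In CPM its means were 21.3 ± 2.45 and 16.9 ± 6.39 (n = 3 each, SD), and the groups overlapped. Its log2 fold change of -0.34 did not pass (adjusted p = 0.370).

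Of 8 leukocyte genes, the 2 tested were higher in RGS tumors. *Laptm5*, a lysosomal protein of blood cells, rose from 176 ± 36.8 to 900.2 ± 60.3 CPM and *Cd53*, a leukocyte tetraspanin, from 31.1 ± 2.61 to 82.3 ± 6.29 CPM (SD, n = 3 each). The rest of the list had almost no counts in either group. The common leukocyte antigen gene *Ptprc*, and *Adgre1*, *Cd3e* and *Ms4a1*, were listed at 0 in all 6 tumors. *Itgam* had 0 to 4 counts and *Csf1r* 0 to 1.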
